A study of Drosophila melanogaster with 4 samples.

Results

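The noc and elB locus was examined as a window of chromosome arm 2L in the Groucho binding map of Drosophila melanogaster white prepupae. The window runs from 14465000 to 14590000 (FlyBase release 5), and its members are the Groucho peaks whose centres lie between those bounds. It held 58 of the 11165 peaks of the deposited list and of the 1948 peaks on 2L. The window was chosen by the peaks themselves, because its number of peaks and its highest score were known when it was picked. All values of number, width, score and spacing below are therefore descriptions of this list, without a test.

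Groucho is a corepressor that has no DNA-binding domain of its own. It is brought to genes by DNA-binding repressors such as Hairy, the E(spl) proteins and Brinker, and it can recruit a histone deacetylase. The genes elB (elbow B) and noc (no ocelli) encode related zinc-finger proteins. They act in the patterning of appendages, in the outgrowth of tracheal branches and in the eye, noc is named for the loss of the simple eyes on top of the head, and Elbow has been described as a partner of Groucho.

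The study made chromatin immunoprecipitation libraries (ChIP-seq), which sequence the DNA pulled down with a protein, and compared 2 Groucho ChIP libraries with 2 libraries of input DNA. Both groups came from white prepupae, animals at the start of metamorphosis, of the strain Y cn bw sp. The genotype, the same in both groups, carries y[1], bw[1], sp[1] and cn[1], the receptor alleles Gr22d[1], Rh6[1] and Gr22b[1], and oc[R3.2], lab[R4.2] and CG33964[R4.2], together with GstD5[1], LysC[1] and MstProx[1]. The antibody, KW0:GRO, is a rabbit polyclonal serum raised against a stretch of the Groucho protein. The labels name no dissected tissue, so binding in more cells and stronger binding per cell cannot be told apart. The data are 1 peak list, with a start, an end and a score of the authors' peak caller for each peak. The list has no value for a single library, so replicate spread could not be computed, and read depth is unknown.

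The list names no genes, and the label of the window was checked only by gene order. In the RefSeq gene table for release 6, elB and noc follow each other on 2L with 8 genes between them, of which 3 are protein-coding (Pburs, a subunit of the hormone bursicon, Cpr35B, a cuticle protein, and CG15283). After noc the next protein-coding genes are CG33648, CG4218, CG3473, CG42680 and osp. Positions were not carried from release 6 to release 5. As plain numbers, the table's interval for noc falls between the bounds of the window, whereas that for elB falls below the lower bound, within the adjoining window. Whether elB lies in the examined window was therefore not shown by the files used here, and the peaks are described by position rather than assigned to either gene.

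Groucho peaks ran through nearly the whole window. From the first member at 14471617 to the last, which ended at 14586409, they spanned 115 kb, and no peak-free gap inside this span reached 5 kb. The members covered 48278 bp, and with the end of 1 peak that crosses the lower bound, 38.6% of the window lay under a peak. The window made up 0.558% of 2L, measured to the end of its last peak, and held 2.98% of the peaks of the arm. Peak scores had a lowest value of 7.61, a median of 26.19 and a highest value of 401.26. Most members were modest peaks, and a few were far higher than the rest.

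**Figure D1:**
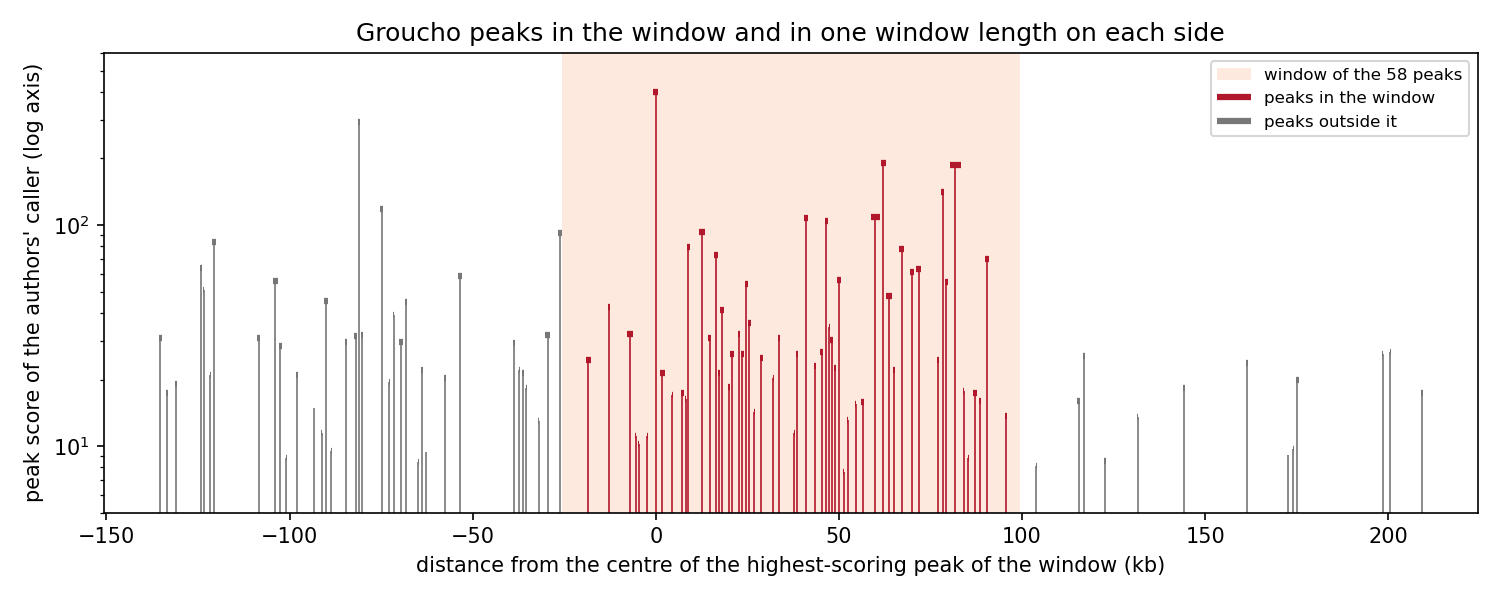
Groucho peaks of the window (red, on a shaded ground) and of 1 window length on each side (grey), by distance in kb from the centre of the highest peak and by score of the authors' caller on a log axis. Horizontal bars have the width of the peak. The highest member, at 401.26, stands among low peaks, and 6 of the 7 members above 100 lie on its right, beyond the midpoint of the window.

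The strongest Groucho site of the window lay near the lower end of the window, at 14489940 to 14491367. It scored 401.26 and was 1428 bp wide, which made it the highest peak of 2L and put it at rank 5 in the whole list. It stood among low peaks. The peaks beside it scored 11.12 and 21.37, and the 9 other members within 10 kb had a median of 16.95. Of those 9 peaks, 1 scored above 50, with 79.91 at 14499081 to 14499975, which is 8.87 kb away from centre to centre. The peak alone held 14.1% of the summed score of the window, a share that depends on the unstated scale of the score. Its width ranked 8 among the members and was above the list's upper decile of 1172 bp.

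The next 6 peaks by score all lay beyond the midpoint of the window, in 3 groups. The first group was a pair of separate peaks, at 14531104 to 14532202 with a score of 108.00 and at 14536771 to 14537645 with 103.92. These were 5.56 kb apart, with low peaks between them.

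The second group lay 59.9 kb to 62.1 kb beyond the highest peak and held 2 adjoining peaks. A peak at 14549382 to 14551806 scored 109.24, and the next, at 14552076 to 14553425, scored 189.97, the second-highest value of the window. The gap between their edges was 269 bp. The score of the following peak, at 14553584 to 14555123, was 47.58.

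The third group was 78.3 kb to 81.8 kb beyond the highest peak. There, a peak at 14568510 to 14569369 scored 141.61 and one at 14570891 to 14573956 scored 187.54, with a peak of 55.04 between them. The peak of 187.54 was the widest member, at 3066 bp, and that of 109.24 the next widest, at 2425 bp. In the second and the third group high scores thus stood near other high scores, whereas around the highest peak they did not. The remaining 3 of the 10 highest members were 93.29 at 14502368 to 14504032, the peak of 79.91 and 77.53 at 14557044 to 14558489. Together the 10 highest held 52.4% of the summed score.

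Scores above 100 were reached by 7 of the 58 members (12.1%, exact binomial 95% interval 4.99% to 23.3%, counting error only, peaks assumed independent). That share was 7.25% among the other 1890 peaks of 2L and 6.81% in the whole list. Both values lie within the interval, which takes no account of how the window was chosen. Of these 7 members, 6 lay above the midpoint of the window and 1 below it, while the 58 members divided into 31 above and 27 below. Among the 17 members with a score above 50, 12 were above the midpoint and 5 below. These 17 made up 29.3% of the members, against 18.7% of the other peaks of 2L and 18.1% of the list.

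In 5 segments of 25 kb, from low to high coordinates, the window held 6, 15, 15, 12 and 10 peaks. The covered share was 17.0%, 50.1%, 38.3%, 51.1% and 36.6%. The first segment was thus the poorest in peaks, and its highest score was 42.75. The second segment held the highest peak, which starts just below the lower bound of that segment, and 32.2% of the summed score. The median score of the second segment, 26.19, was nevertheless that of the whole window. The fourth segment had the highest median, 52.0, and 6 of the 17 members above 50. In the last one the median was 21.10, in spite of the peaks of 187.54 and 141.61.

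Groucho sites in the window formed long runs. Outside it, runs were counted only in the adjoining lower window, so the other crowded windows were not compared for them. With peaks placed in 1 run where their edges lay less than 2 kb apart, the 58 members made 9 runs, of which 3 were single peaks. The longest ran from 14528368 to 14563164, held 21 peaks over 34.8 kb and was covered to 53.4%. It included 4 of the 7 members above 100. The next held 13 peaks between 14502368 and 14520003, of which none scored above 100 and the highest scored 93.29. A run of 9 peaks, from 14567324 to 14581737, was the most densely covered of the 4 longest runs, at 61.4%, and included the peaks of 187.54 and 141.61. The fourth, with 7 peaks from 14482926 to 14495327, contained the highest peak and had a median score of 16.95. The run with the highest score was therefore the one with the lowest median of these 4, against medians of 30.04, 30.93 and 24.54 in the runs of 21, 13 and 9 peaks.

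Counted within the bounds, the 3 widest stretches without a peak lay at the lower end of the window. They were 14465007 to 14471616 (6610 bp), which precedes the first member, 14478147 to 14482925 (4779 bp) and 14472914 to 14477550 (4637 bp). The next, 14581738 to 14586102 (4365 bp), lay at the upper end, and one of 4159 bp lay between the runs of 21 and 9 peaks. The stretch above the last member was counted only to the upper bound, at 3591 bp. Its full length to the first peak outside was 8000 bp. A peak-free stretch means that none was called there, since the depth behind the list is unknown.

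Neighbouring members lay close to each other. The 57 distances between neighbouring centres had a median of 1774 bp, with quartiles of 1066 and 2359 bp, against a median of 3662 bp among the other neighbouring peaks of 2L. Between the edges of neighbouring members the median gap was 801 bp, against 3072 bp elsewhere on the arm. Gaps under 2 kb made up 49 of 57 (86.0%) in the window and 42.9% of 1888 elsewhere. Gaps under 200 bp made up 12.3% in the window and 6.25% elsewhere. Such close edges can belong to 1 broad region that the caller divided, and how often this happened was not tested.

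**Figure D2:**
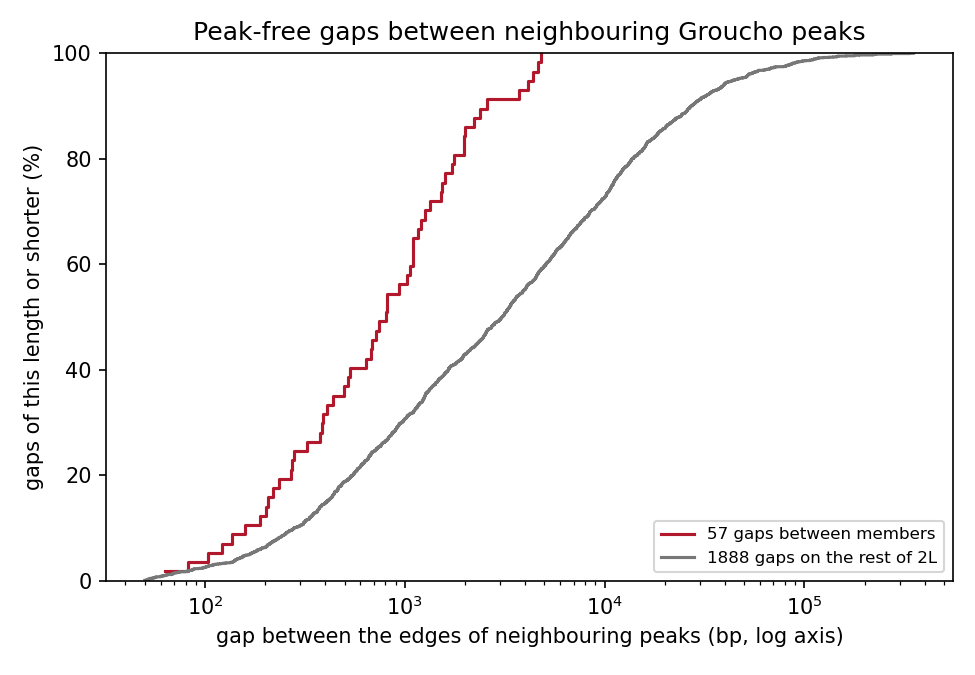
Cumulative share of the gaps between edges of neighbouring peaks, by gap length in bp on a log axis, for the 57 gaps between members (red) and the 1888 gaps on the rest of 2L (grey). All 57 gaps are shorter than 5 kb, as are 59.6% of those elsewhere.

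At least 4 other peaks within 10 kb were found for 57 of the 58 members, against 42.2% of the other peaks of 2L and 48.9% of the list. The member without them was the first, at 14471617 to 14472913, which had 2. The number of such neighbours had a median of 9.5 and a highest value of 13.

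Members were wider than the other peaks of the arm and, with that, higher in score. The median width was 684.5 bp in the window and 445 bp among the other peaks of 2L, and 40 of 58 members exceeded the list median of 454 bp. Widths over 2 kb were found in 2 members (3.45%), against 2.22% of the other peaks of 2L and 2.53% of the list. The median score was 26.19 in the window and 18.38 on the rest of 2L. A score above the list median of 18.38 was found for 41 members (70.7%), against 49.7% of the other peaks of 2L.

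Score was also set side by side within 4 classes of width. Among peaks under 500 bp wide, the median score was 15.57 in 19 members and 13.26 in 1065 other peaks of 2L. From 500 bp to under 1000 bp it was 30.93 in 21 members and 30.48 in 575 other peaks. From 1000 bp to under 2000 bp the order was the other way round, with 58.95 in 16 members and 71.09 in 208 other peaks. At 2000 bp and over, the 2 members had a median of 148.39, against 104.92 in 42 other peaks. The medians were thus close in the classes under 1000 bp, and in the wider ones they differed in both directions. Across the 58 members, score and width had a Spearman's rho of 0.764, against 0.785 across the other peaks of 2L. Peaks of 1 list share the libraries and the caller, which sets both values.

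**Figure D3:**
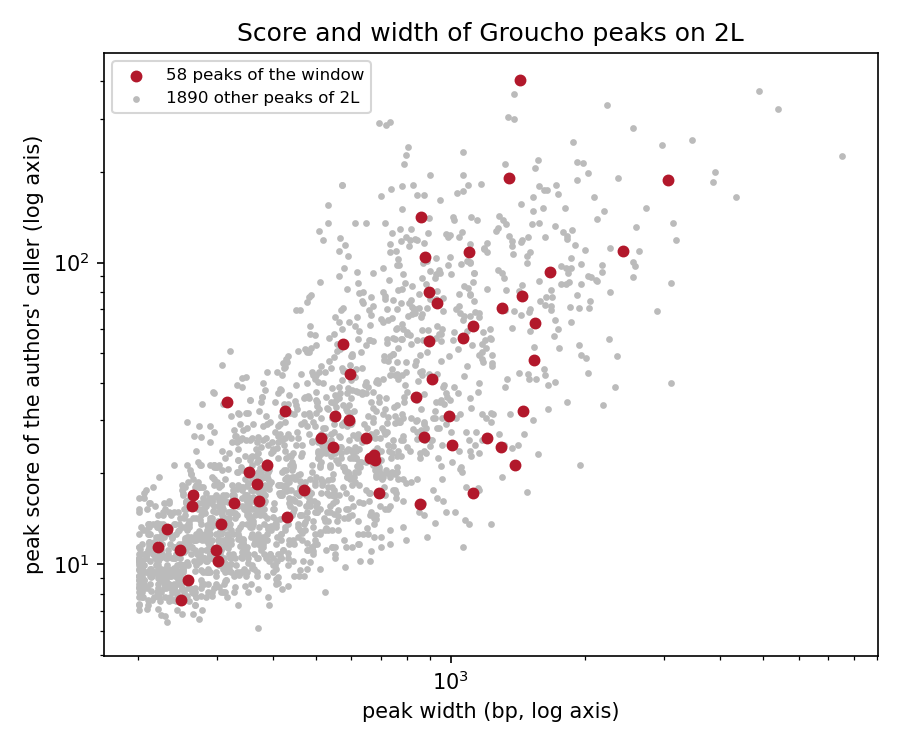
Peak width in bp against score of the authors' caller, both on log axes, for the 58 members (red) and the 1890 other peaks of 2L (grey). The members follow the spread of the other peaks, and the peak of 401.26 is the highest of the arm at a width of 1428 bp.

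The window was then set beside all other windows of its size on 2L, laid end to end from its own bounds. It held the most peaks of the 178 windows, 58, against 38 in the next and a median of 10 in the others (quartiles 5 and 16). It also had the most covered bases, 48285, against 30574 at most and a median of 4944 in the others. It ranked 1 as well by highest score, by summed score and by number of peaks above 100, with 7 against at most 6 in another window. Its rank was known in part when the window was picked and is given for size only. The number of windows without a peak was 13.

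**Figure D4:**
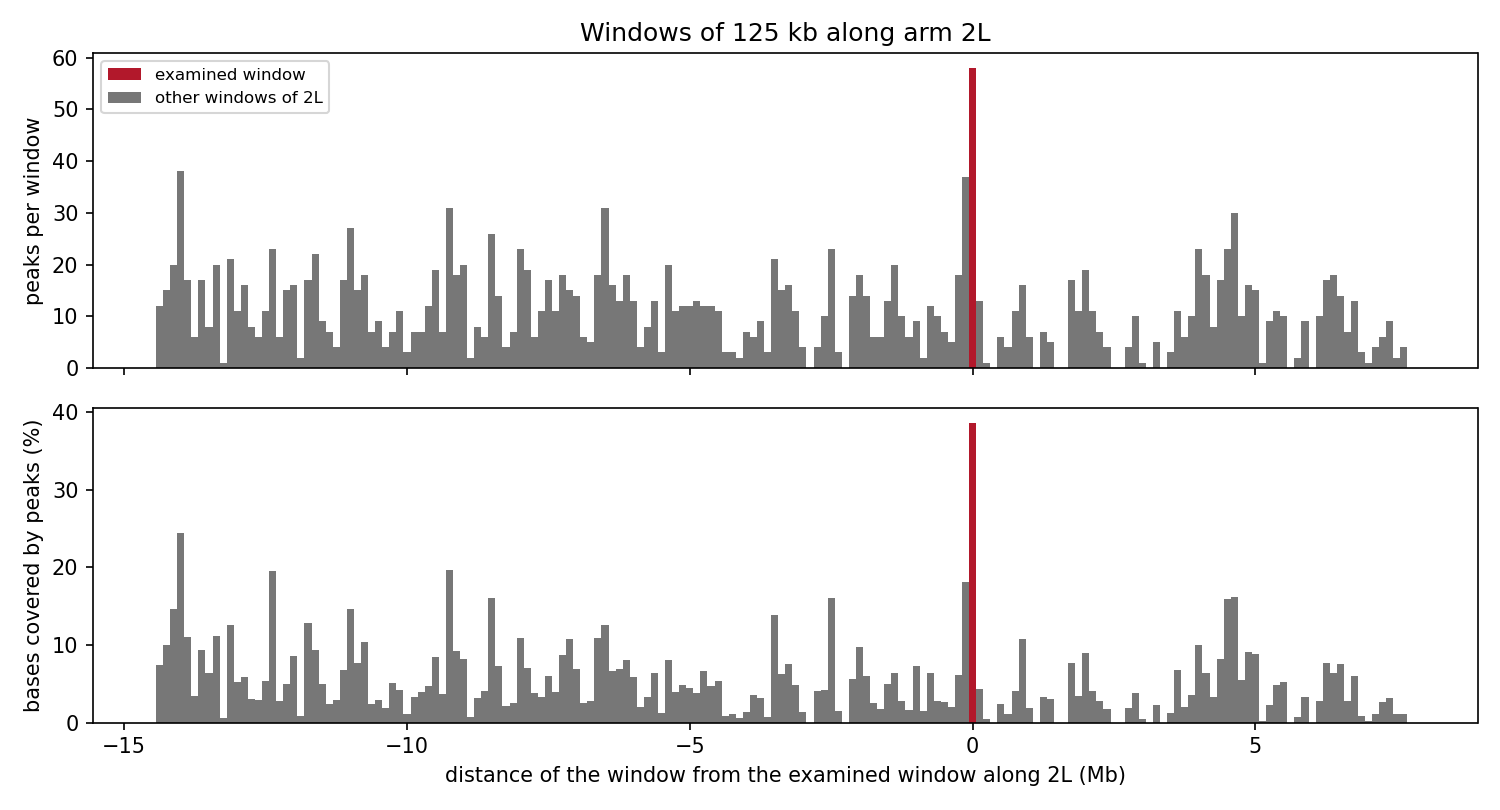
Peaks per window (upper panel) and share of bases covered by peaks (lower panel) in 178 windows of 125 kb along 2L, by distance in Mb from the examined window, which is shown in red. The examined window reaches 58 peaks and 38.6%, against at most 38 peaks and 24.5% in the other windows.

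Not all properties put the window first. Its median score of 26.19 ranked 36 among the windows with a peak, many of which held few. Among the 21 windows with 20 or more peaks, the median score ranked 5, with a highest value of 30.93 in the window at 5214926 to 5339926. By median distance between neighbouring centres, it ranked 5 of these 21 from the closest, with 1774 bp, where the closest had 1367 bp. Its median width, 684.5 bp, was the largest of the 21, although the next was 681 bp. Peaks in some of the other crowded windows were thus as close together and scored as high.

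The windows most like it were those with the next highest numbers of peaks. The window at 464888 to 589888 held 38 peaks with 24.5% of its bases covered, a highest score of 302.67 and 5 peaks above 100. Its median score was 29.40 and its median distance 1644 bp. A pair of windows held 31 peaks each. That at 5214926 to 5339926 had 5 peaks above 100 and a highest score of 251.05, and that at 7964948 to 8089948 had 3 and 161.37.

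The third most crowded window of the arm was the adjoining one, at 14339999 to 14464999, with 37 peaks. It may belong to the same locus, since the numbers of the release 6 table for elB fall in it, which the files used here do not settle. It was covered to 18.0%, against 38.6% in the examined window, while its median score was 29.17, against 26.19. Its highest peak, at 14409288 to 14410018, scored 292.50 at a width of 731 bp. The peaks on its sides scored 31.37 and 31.74, slightly above the median of that window. Those beside the peak of 401.26 were lower, at 11.12 and 21.37. The next, at 14415416 to 14416226, scored 118.42, and these 2 were the only peaks above 100 there. The longest run of that window held 5 peaks, from 14415416 to 14422668, against 21 in the examined window. The crowded stretch therefore extended below the window, in shorter runs.

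On the other side the peaks thinned out. The adjoining window at 14590001 to 14715001 held 13 peaks with a highest score of 26.60, the one after it held 1, and the next held none. At the upper bound the last member, 14586103 to 14586409, scored 13.61, and the first peak outside, at 14594410 to 14594718, scored 8.11. At the lower bound the first member, 14471617 to 14472913, scored 24.41, and the nearest peak outside, at 14463878 to 14465006, scored 91.98. That peak overlaps the window but has its centre below it. The gap between the 2 peaks at the lower bound was 6610 bp and that at the upper bound 8000 bp, both wider than any gap between 2 members.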

How the data were processed

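The study sequenced 2 Groucho ChIP and 2 input DNA libraries, grouped by their titles. The deposited file is 1 GFF3 peak list on FlyBase release 5 with MACS as the source, per the file headers. CASAVA (1.7.0.2 and 1.7.0.3), BWA, MACS2 and the build BDGP5 are named in the submitters' processing notes. For the peak threshold, read filters and any pooling of libraries, nothing is given in the sources used here. The deposited score comes from the authors' caller on an unstated scale. It served to rank and describe peaks within the list and was also summed over peaks. Summed scores, and shares of them, depend on that scale.

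Positions are 1-based. A peak belonged to a window by its centre. Other windows of 125001 bp were laid end to end on 2L from the same bounds. No test was run, and the window, thresholds and comparisons were chosen with earlier results of these data known. The peaks named are the 10 of highest score, the widest, those at the bounds, the 4 longest runs, the 3 widest gaps and the windows with the most peaks. The peaks of 55.04 and 47.58, those beside the highest peaks and the window next above were named after their values were seen. Counting was tested on simulated lists. Planned descriptions of promoter motifs and proteins need sequences that were not used here. Calculations used Python 3.11.15, numpy 2.4.6, pandas 2.3.3 and scipy 1.17.1, and plots matplotlib 3.10.9.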

Additional observations from a re-analysis of the deposited data

How the results depend on the processing

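Of 41 alternative values, 36 stayed close to those reported (a factor of 1.5, or the exact binomial interval for a share). Some of these could not move. Examples are the covered share with peaks counted by any overlap, and the members above 100 in the upper 50% of the list. The window ranked 1 on 2L by peak number and by covered bases in all 14 alternative rankings. Where the other windows were shifted or moved in steps of 5 kb, those overlapping the examined window were left out. Another placement over the same stretch therefore could not outrank it. These ranks are no test, because the window was picked with its number of peaks known. Joining of peaks with edges closer than 1 kb left 26 peaks at a median distance of 4206 bp, by construction. The number of members above a score of 50 was 17 (29.3%), against 18.7% of the other peaks of 2L and 18.1% of the list. Above 200 the number was 1 (1.72%), against 1.22% and 1.44% in the same order. With the list limited to its upper 50% by score, 41 members were kept, of which 48.8% exceeded the median of the limited list. Over the whole list the share was 70.7%. By construction, a median leaves about 50% of its own peaks above it, so the kept members showed no excess over the limited list. No paired analysis was possible because the list holds no value per library, and no replicate could be left out. Read depth is unknown, so an uncalled stretch is not shown to lack Groucho.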
